A study of Mus musculus with 240 samples.

Results

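MHC class I and antigen processing genes, 10 in number, were examined in brain RNA-seq of the 8 Collaborative Cross founder strains. They comprised 4 genes for class I heavy chains (H2-K1, H2-D1, H2-T22 and H2-T23) and 6 genes for the rest of the pathway (B2m, Tap1, Tap2, Tapbp, Psmb8 and Psmb9). The genes were taken by symbol from the deposited count table and joined by gene identifier to the table of normalised values. All 10 were found among the 55414 genes of the count table and all 10 were among the 14785 genes carried into the normalised table.

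The samples were 3 brain regions from each of 48 mice, namely prelimbic cortex (PrL), nucleus accumbens core (NAcc) and central amygdala (CeA). Each strain was represented by 6 animals, 3 females and 3 males, and every animal was naïve, with an age of 8 weeks given in the series description and a somewhat older adult age in the methods of the study. The strains were the classical inbred B6 (C57BL/6J), S129 (129S1/SvImJ), AJ (A/J), NOD (NOD/ShiLtJ) and NZO (NZO/HILtJ), and the wild-derived WSB (WSB/EiJ), PWK (PWK/PhJ) and CAST (CAST/EiJ). NOD/ShiLtJ is the name in the study, and the sample labels give NOD/LtJ. B6 and PWK were the strains of high ethanol preference, and the mean of the other 6 strains is called Low_Average below. It is a mean of log2 values, so a strain with a very low level enlarges a fold difference above it. A library from the NAcc of a female B6 mouse was left out by the authors, so NAcc B6 had 5 libraries and every other group had 6. The 143 libraries held between 14942820 and 33951616 counts. An inbred strain is a single genotype, so the 6 mice of a strain are separate animals but not separate genomes.

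Class I molecules show peptides from inside a cell to CD8 T cells and natural killer cells. The proteasome cuts proteins into peptides, the TAP transporter carries the peptides into the endoplasmic reticulum, and tapasin (Tapbp) helps to load them onto a heavy chain paired with beta-2 microglobulin (B2m). H2-K1 and H2-D1 are the classical heavy chains and are among the most polymorphic genes of the mouse, whereas H2-T22 and H2-T23 (Qa-1) are non-classical heavy chains. Psmb8 and Psmb9 are the inducible subunits that turn the standard proteasome into the immunoproteasome. In the healthy brain, class I genes are expressed at low levels by neurons, microglia and endothelial cells, and the pathway is induced by interferons.

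Reads of all 8 strains were aligned to a single reference genome, which is that of B6. A lower count of a heavy chain gene in another strain can therefore stand for less transcript or for an allele whose reads did not align, and for the heavy chain genes these cannot be told apart in these data. How far the alleles differ from the reference was not tested. Reads can also be shared with related genes of the reference itself. Over the transcripts of the reference annotation, 8.86% of the 100-base windows of H2-T22 also occurred in another gene, most often H2-T10. The share was 3.59% for H2-D1, 3.15% for H2-T23 and 0.957% for H2-K1. It was 0.0775% for Tapbp and 0 for B2m, Tap1, Tap2, Psmb8 and Psmb9.

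Class I promoters are known for a shared set of short motifs. The promoters of 5 members, the 4 heavy chains and B2m, are given to show where these motifs lie, and no relation of the motifs to the values was tested. The sequences are the 250 bases before the RefSeq start site in build GRCm38.p6, 5′ to 3′ on the strand of the gene. They are the reference (B6) sequence, and the promoters of the other strains were not analysed here. Capitals mark the interferon-stimulated response element core (GAAA, any 2 bases, GAAA), the NF-kappaB consensus and the Y box CCAAT, each on either strand. H2-K1 had 2 overlapping RefSeq windows, of which 1 is printed. The other, chr17:34000334-34000583, holds a further CCAAT at bases -6 to -2 from its start site.
H2-K1, chr17:34000348-34000597, minus strand: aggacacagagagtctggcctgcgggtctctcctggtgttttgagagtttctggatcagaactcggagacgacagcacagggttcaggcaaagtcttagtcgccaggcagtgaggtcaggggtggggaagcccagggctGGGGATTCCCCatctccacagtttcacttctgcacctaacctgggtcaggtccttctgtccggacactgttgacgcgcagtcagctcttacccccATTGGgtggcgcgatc
H2-D1, chr17:35262844-35263093, plus strand: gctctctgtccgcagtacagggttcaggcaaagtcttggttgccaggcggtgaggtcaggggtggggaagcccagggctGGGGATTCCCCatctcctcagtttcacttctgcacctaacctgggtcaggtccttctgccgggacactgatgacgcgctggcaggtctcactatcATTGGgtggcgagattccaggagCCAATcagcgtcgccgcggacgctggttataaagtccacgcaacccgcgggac
B2m, chr2:122147437-122147686, plus strand: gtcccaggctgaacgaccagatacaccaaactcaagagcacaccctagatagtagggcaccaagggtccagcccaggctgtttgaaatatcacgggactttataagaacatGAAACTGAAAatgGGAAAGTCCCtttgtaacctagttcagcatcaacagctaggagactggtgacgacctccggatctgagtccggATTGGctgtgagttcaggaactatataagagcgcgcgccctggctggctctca
H2-T22, chr17:36042743-36042992, minus strand: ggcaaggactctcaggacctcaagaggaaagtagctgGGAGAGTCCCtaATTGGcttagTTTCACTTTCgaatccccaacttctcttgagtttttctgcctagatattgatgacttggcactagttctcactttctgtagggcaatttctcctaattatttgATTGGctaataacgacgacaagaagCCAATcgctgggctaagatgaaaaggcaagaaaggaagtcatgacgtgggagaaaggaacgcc
H2-T23, chr17:36032702-36032951, minus strand: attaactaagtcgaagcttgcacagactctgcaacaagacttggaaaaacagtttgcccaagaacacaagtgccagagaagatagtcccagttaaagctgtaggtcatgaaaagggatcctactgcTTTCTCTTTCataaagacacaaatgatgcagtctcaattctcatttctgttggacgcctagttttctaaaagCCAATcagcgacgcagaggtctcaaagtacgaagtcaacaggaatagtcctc

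RefSeq windows were found for 9 of the 10 genes, all but Tap2. The NF-kappaB consensus lay in the windows of H2-K1, H2-D1, H2-T22 and B2m and in 3.9% of 32851 windows of all genes. The response element core, in its strict form without mismatches, lay in those of B2m, H2-T22 and H2-T23 and in 2.98% of all windows. Looser forms of this element were not searched. A window without a match, such as those of H2-K1 and H2-D1, therefore lacks the strict form only. The Y box, a common sequence, lay in 8 of the 9 windows and in 33.8% of all, and the X2 box (TGACG) in 6 of the 9 and in 17.8% of all. The gamma-interferon-activated site (TTC, any 3 bases, GAA) lay only in the window of Psmb8, and in 7.02% of all windows. The windows of H2-K1 and H2-D1 shared an unbroken run of 47 bases that included the NF-kappaB consensus. Tap1 and Psmb9 lie head to head, with start sites 225 bases apart on opposite strands of chromosome 17, so their windows overlap. A match describes the letters in these windows and is not a measured binding site.

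The region labels were checked against neuronal markers. Averaged over its libraries, the PrL was highest in cortical glutamatergic markers (mean log2 CPM 7.42, against 5.37 in the CeA and 2.06 in the NAcc), and the NAcc was highest in striatal neuron markers (8.37, against 6.83 and 4.19 in the CeA and PrL). Markers of the central amygdala were higher in the CeA (4.93) than in the PrL (2.69) but were higher still in the NAcc (5.20), so this set did not set the CeA apart from the NAcc. CPM are counts scaled to TMM-adjusted library size, the unit of all levels given here. In 14 of the 143 libraries, the cortical set, the striatal set or both lay more than 3 scaled median absolute deviations from the median of the region. Of these libraries, B6 had 1, 2 and 2 and PWK had 1, 3 and 1 in the CeA, NAcc and PrL, and the others were from AJ, CAST and WSB. They included NAcc libraries of B6 mice 25 and 33, with cortical markers at 4.27 and 5.39 against a median of 1.82, and PrL libraries of the same mice, with striatal markers at 5.78 and 5.18 against 4.04 and cortical markers at 6.33 and 6.51 against 7.45. The PrL library of PWK mouse 40 had striatal markers at 7.55, and the NAcc library of PWK mouse 48 had cortical markers at 6.64. Over strains, of the 5 cortical markers 0, 2 and 0 were higher in B6 than in Low_Average and 2, 1 and 4 lower (CeA, NAcc and PrL). Of the 6 striatal markers 0, 1 and 2 were higher in B6 and none lower, and of the 7 central amygdala markers 1, 0 and 4 were higher and 0, 1 and 1 lower. In PWK, 1, 1 and 1 of the cortical markers were higher and none lower, 0, 0 and 3 of the striatal markers were higher and 0, 2 and 0 lower, and 0, 0 and 1 of the central amygdala markers were higher and 0, 1 and 1 lower. The part of these markers in the differences of the class I genes was not tested. The 14 libraries were kept, and results that changed without them are named beside the comparisons.

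Per kilobase of exon, B2m was by far the most abundant of the 10 transcripts, with a median of 56.7 CPM per kb over the 24 strain by region groups. H2-D1 (10.4) and Tapbp (9.57) followed, then H2-K1 (2.86), Tap2 (2.38), H2-T23 (2.25) and H2-T22 (2.18). Psmb8 (0.679), Tap1 (0.631) and Psmb9 (0.337) were the lowest. The heavy chain genes ranged most widely among the groups: H2-T22 ran from 0.187 CPM per kb in PrL AJ to 7.33 in PrL B6, whereas Tapbp ran only from 8.14 in CeA S129 to 12.3 in PrL NZO.

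The question of the study was which genes differ between the strains of high and low ethanol preference. All 4 heavy chain genes were higher in B6 than in Low_Average in all 3 regions, by between 1.74-fold (H2-D1, NAcc) and 7.09-fold (H2-T22, PrL). The low H2-T22 means of AJ and NOD in the PrL (0.638 and 0.693 CPM) enter the log2 mean behind the latter value. Of the processing genes, B2m and Psmb8 were higher in B6 in all 3 regions, Psmb9 in the CeA and Tap1 in the PrL, while Tap2 and Tapbp were not called in any region in this fit. In the CeA 7 of the 10 genes were higher in B6 and none lower, and 22.3% of all 14785 genes were higher in that comparison. The count was 6 in the NAcc, where 17.3% of all genes were higher, and 7 in the PrL, where 18.3% were. The median log2 difference of the 10 genes was 0.87, 0.42 and 0.46 in these regions, whereas the median of all genes was 0.0071, 0.0081 and -0.0031. The 6 genes H2-K1, H2-D1, H2-T22, H2-T23, B2m and Psmb8 were higher in all 3 regions, as were 6.08% of all genes.

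The tests were limma moderated tests on voom-weighted counts within a region, with sex and sequencing tray in the model and with p-values adjusted over all genes and both contrasts. Within single sequencing trays, which hold 2 mice of a strain except for tray 2 of the NAcc, where B6 has 1 library, the 4 heavy chain genes stayed higher in B6 in every tray and region, with log2 differences of 1.20 to 2.40 (CeA), 0.75 to 1.89 (NAcc) and 0.62 to 2.91 (PrL), although H2-D1 was not called in any tray of the NAcc nor H2-K1 in tray 2 there, where the fit takes the lone B6 library to vary like the other strains. Without the 14 libraries that stood apart in region markers, 7, 5 and 6 of the 10 genes were called higher or lower in the CeA, NAcc and PrL. B2m was then no longer called in the NAcc, nor Tap1 and Psmb8 in the PrL.

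**Figure D1:**
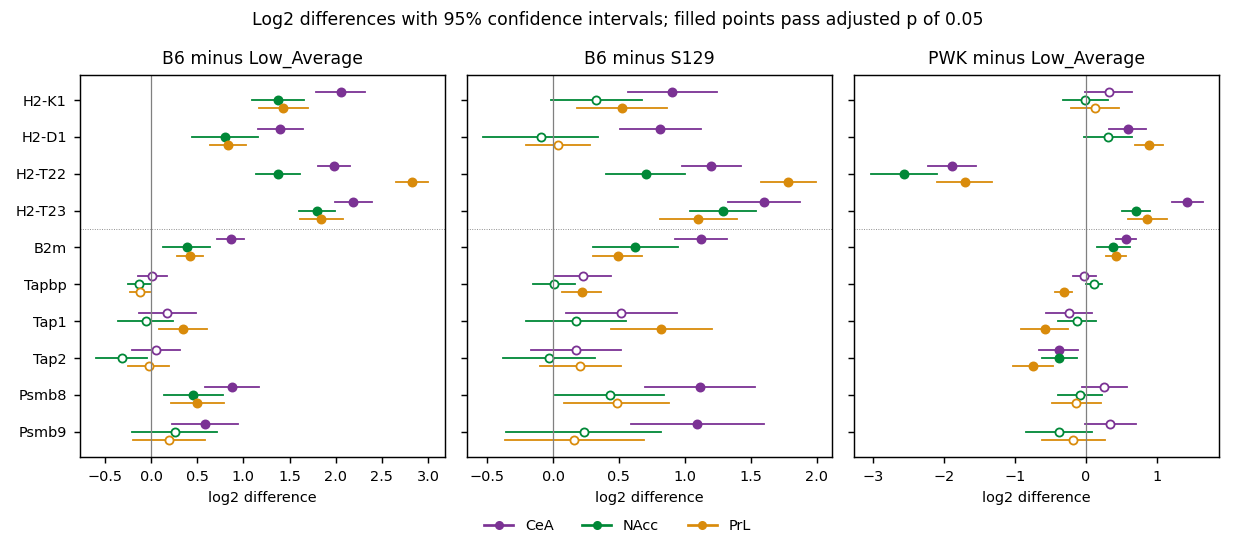
Log2 differences of the 10 genes (horizontal axes, without units) for B6 minus Low_Average, B6 minus S129 and PWK minus Low_Average, with points coloured by region, bars for 95% confidence intervals, and filled points for adjusted p-values under 0.05. All 4 heavy chain genes above the dotted line lie to the right of 0 in B6 minus Low_Average in each region, and H2-T22 lies far to the left in PWK minus Low_Average.

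H2-K1, a classical heavy chain, was highest in B6. In the CeA, the 6 B6 libraries ranged from 24.0 to 38.1 CPM (median 25.2), the S129 libraries from 11.9 to 17.9 (median 16.4), and the medians of the other 6 strains lay between 4.75 and 7.64. No B6 library overlapped any of the 42 libraries of the other strains there. The complete separation of B6 from the other strains was seen for 0.223% of all genes in the CeA. H2-K1 was 4.15-fold higher in B6 than in Low_Average in the CeA (log2 difference 2.05 ± 0.13 SE, adjusted p = 1.29e-16), 2.59-fold higher in the NAcc and 2.69-fold higher in the PrL. In the order of strains, B6 and then S129 stood above the rest in every region. B6 and S129 differed in the CeA and PrL but not in the NAcc (adjusted p = 0.161). The PrL call was lost without the libraries that stood apart (log2 0.25, adjusted p = 0.204). S129 differed from the next strain, PWK, in each region, and no neighbouring pair among the remaining 6 strains differed.

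The H2-K1 libraries of AJ were spread widely. In the CeA they held 4.81, 5.00, 5.50, 5.53, 8.86 and 14.2 CPM, and in the NAcc 4.78, 4.98, 5.56, 6.15, 14.2 and 14.7. Mouse 29 was the highest AJ animal in the CeA, mice 21 and 29 were the highest in the NAcc, and the same mice were at 14.3 and 15.5 in the PrL. Among the B6 libraries of the PrL, H2-K1 was at 18.2 to 22.8 CPM in 4 mice and at 34.5 and 40.0 in mice 25 and 33, whose PrL libraries also carried the raised striatal markers. The part of tissue composition in these 2 values was not tested.

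H2-D1, the other classical heavy chain, had a different order of strains. In the CeA it was at 32.2 to 52.1 CPM in B6 (median 36.7), at medians of 21.2 to 27.0 in S129, AJ, NOD, NZO and PWK, at 5.87 to 13.6 in CAST (median 9.41) and at 2.69 to 3.99 in WSB (median 3.51). WSB stood lowest in every region. The highest WSB library, at 6.67 CPM in the PrL, was below the lowest library of every other strain in that region, of which the lowest was a CAST library at 7.68. H2-D1 was lower in WSB than in each of the 7 other strains in all 3 regions, as were 1.15%, 0.994% and 1.79% of all genes in the CeA, NAcc and PrL. CAST was next, lower than the 6 remaining strains in all 3 regions. B6 exceeded WSB by 11.8-fold in the CeA (log2 difference 3.56), 8.52-fold in the NAcc and 7.27-fold in the PrL.

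Among the other strains, in the NAcc, AJ was lower than NZO (log2 -0.88), NOD (-0.80), S129 and B6, and PWK was lower than NZO, NOD and S129. B6 was higher than each of the other 7 strains in the CeA, where 1.97% of all genes were. Its libraries still overlapped others there: the highest NZO library held 41.2 CPM, and only 2 of the 6 B6 libraries lay above it. In the NAcc and PrL the highest mean was that of NZO (40.5 and 40.0 CPM), and B6 (31.8 and 38.8) did not differ from NZO, NOD, S129 or PWK in either region. The difference of B6 from Low_Average was called in all 3 regions (log2 1.40, 0.80 and 0.83), and the low values of WSB and CAST enter that mean.

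**Figure D2:**
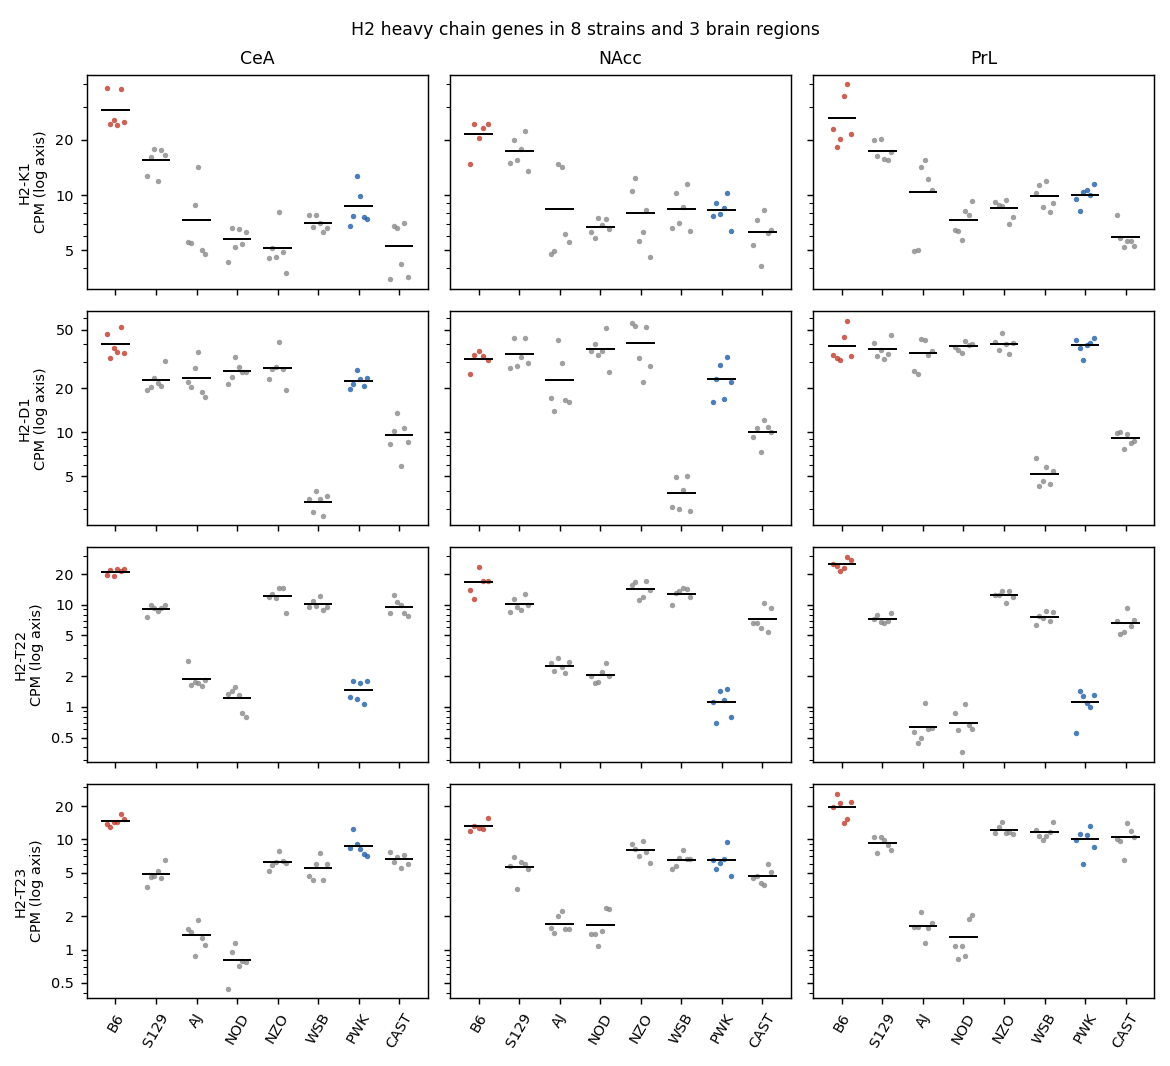
CPM of the 4 heavy chain genes on log axes for each library (points) by strain and region, with bars at the group means, B6 in red and PWK in blue. H2-D1 is lowest in WSB, H2-T22 is lowest in AJ, NOD and PWK, and H2-T23 is lowest in AJ and NOD.

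H2-T22, a non-classical heavy chain, split the strains into separate groups. In the PrL it was at 21.6 to 29.3 CPM in B6 (median 24.5), at 10.5 to 13.7 in NZO (median 12.5), at medians of 6.56 to 7.60 in WSB, S129 and CAST, and at medians of 0.587, 0.633 and 1.18 in AJ, NOD and PWK. B6 did not overlap any other strain in the CeA or PrL, and 0.237% of all genes showed this in the PrL. In the NAcc the 5 B6 libraries held 11.3, 14.0, 17.1, 17.1 and 23.5 CPM and overlapped those of NZO, which reached 17.0. Among the 10 genes, the largest difference over all 28 pairs and 3 regions was that of H2-T22 between B6 and AJ in the PrL, 39.6-fold (log2 5.31 ± 0.23 SE, adjusted p = 3.2e-22). In the NAcc, B6 and NZO did not differ (log2 0.21, adjusted p = 0.29), and neither did NZO and WSB. PWK was lower there in H2-T22 than each of the 7 other strains, as were 3.42% of all genes.

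The low H2-T22 strains were not low in every related transcript. H2-T10, the gene that shares most sequence with H2-T22, was examined after its values had been seen. It was at 4.62 ± 1.45 and 3.73 ± 0.66 CPM (SD, n = 6) in AJ and NOD in the CeA, while the means of the other 6 strains were between 0.699 and 1.14. B6 minus AJ for H2-T10 was -2.25, -2.44 and -1.18 (log2) in CeA, NAcc and PrL. PWK, the other strain with low H2-T22, did not have high H2-T10, at 0.731 ± 0.098 CPM in the CeA. The sum of H2-T22 and H2-T10 was still highest in B6 in each region (22.0, 17.8 and 26.1 CPM in the CeA, NAcc and PrL) and lowest in PWK (2.19, 1.65 and 1.78). In AJ the sum was 6.51, 8.58 and 3.01 CPM, and in NOD 4.95, 7.41 and 2.81. In the CeA and PrL these sums stayed below those of the strains other than PWK. In the NAcc they lay beside that of CAST (8.23), so AJ and NOD did not stand apart there.

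H2-Bl, a further class I gene also examined after its values had been seen, was high in PWK, at 5.56, 10.5 and 4.11 CPM in the CeA, NAcc and PrL, against 0.50, 0.40 and 0.19 in B6. PWK exceeded Low_Average in H2-Bl by 3.59, 3.38 and 4.14 on the log2 scale. S129 (7.80) and NZO (4.29) were also above the other Low_Average strains in the NAcc. The plot of related T-region transcripts sets H2-T22, H2-T10 and H2-Bl side by side by strain. Whether reads of one of these genes were assigned to another in a given strain was not tested.

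**Figure D3:**
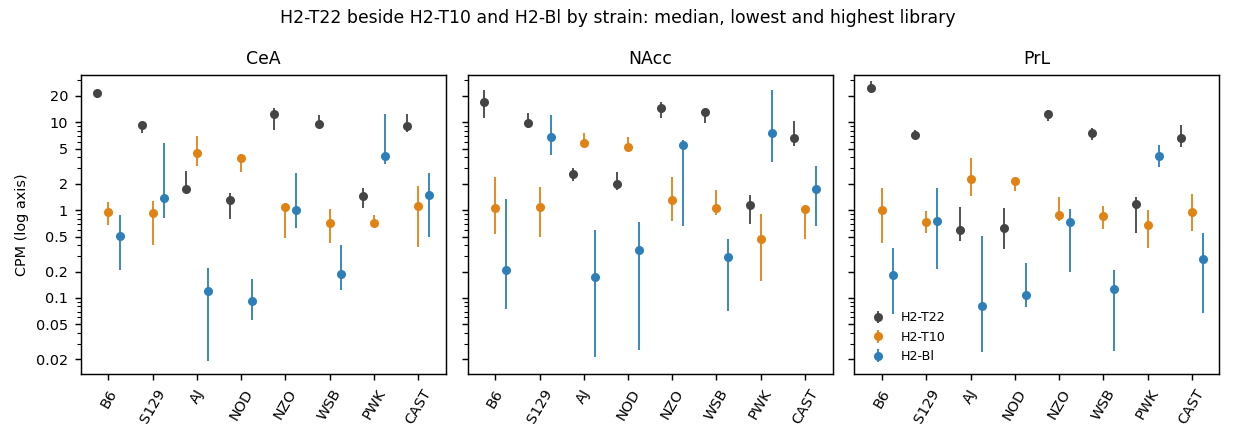
Median CPM (points) with the lowest and highest library (bars) of H2-T22, H2-T10 and H2-Bl by strain in the 3 regions, on a log axis. H2-T10 lies above H2-T22 in AJ and NOD, H2-Bl lies above it in PWK, and H2-T22 is the highest of the 3 in the other 5 strains.

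H2-T23, which encodes Qa-1, a ligand of the NKG2A receptor of natural killer cells, was the member that set B6 apart most regularly. In the CeA the 6 B6 libraries held 13.0 to 17.0 CPM (median 14.4), and the highest library of any other strain, from PWK, held 12.4. The 5 NAcc libraries of B6 held 11.9, 12.4, 12.8, 13.3 and 15.6, and the highest other library, from NZO, held 9.67. B6 thus did not overlap the other strains in these regions, and 0.264% of all genes showed this in the NAcc. In the PrL the lowest B6 library (14.0) lay below the highest library of WSB (14.4). H2-T23 was higher in B6 than in each of the 7 other strains in all 3 regions, which held for 0.311% of all genes. No other member did so: in the NAcc H2-T23 alone was higher in B6 than in each other strain (1.02% of all genes), and in the PrL H2-K1, H2-T22 and H2-T23 were (1.26%). The PrL call of H2-K1 against S129 was lost without the libraries that stood apart (log2 0.25, adjusted p = 0.204). AJ and NOD were the lowest strains of H2-T23, with CeA medians of 1.36 and 0.771 CPM. NOD was lower there than each of the 7 other strains, as were 0.467% of all genes, and B6 exceeded NOD by 19.1-fold there (log2 4.25 ± 0.22 SE, adjusted p = 1.41e-19).

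B2m, the light chain shared by all class I molecules, lies on chromosome 2, outside the H2 region. Its strain differences were smaller. In the CeA it was at 56.2 to 80.5 CPM in B6 (median 72.0), at 49.6 to 67.3 in PWK (median 55.2), at 39.4 to 61.2 in CAST (median 46.4) and at medians of 31.7 to 40.2 in the others. B6 was higher there than each of the 7 other strains, although its libraries overlapped those of PWK and CAST. The difference of B6 from Low_Average was 1.82-fold in the CeA (log2 0.86 ± 0.07 SE, adjusted p = 4.64e-13), 1.31-fold in the NAcc and 1.34-fold in the PrL. The NAcc value was no longer called without B6 mouse 33 (log2 0.33, adjusted p = 0.0651). B6 and PWK did not differ in the NAcc (53.4 and 54.5 CPM) or the PrL (69.0 and 68.6 CPM).

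Tap1 and Tap2 form the peptide transporter and Tapbp encodes tapasin. In the CeA, Tap1 was at 4.18 to 7.87 CPM in WSB (median 5.85), at 3.52 to 6.60 in B6 (median 4.74) and at 2.54 to 4.31 in S129 (median 3.22). WSB had the highest mean, but its difference was not called from CAST (adjusted p = 0.423) or B6 (0.243). In the PrL it was 1.27-fold higher in B6 than in Low_Average (adjusted p = 0.0277). The 6 B6 libraries of the PrL held 2.62, 3.12, 3.35, 3.51, 5.94 and 6.17 CPM of Tap1, and the high pair came from mice 25 and 33. The call was lost without either of them (log2 0.21, adjusted p = 0.207, without mouse 25, and log2 0.23, adjusted p = 0.157, without mouse 33), and without the libraries that stood apart the log2 difference was 0.0502.

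Tap2, the partner of Tap1, was not called between B6 and Low_Average in any region (log2 0.05, -0.32 and -0.03, with adjusted p-values of 0.766, 0.0651 and 0.873), although edgeR (-0.34, adjusted p = 0.0383) and DESeq2 (-0.35, adjusted p = 0.0261) called it lower in B6 in the NAcc. So did limma with sample quality weights (-0.34, adjusted p = 0.00367), with both runs summed (-0.37, 0.0399) and with the other run of trays 2 and 3 (-0.39, 0.0488). With the NAcc library that the authors left out included, the limma difference was -0.18 (adjusted p = 0.316). Tap2 was lowest in PWK, with a PrL median of 5.05 CPM against 7.37 to 11.0 in the other strains, and PWK was lower than each of the 7 other strains in the PrL, as were 4.73% of all genes. Tapbp had strain medians from 29.5 to 42.3 CPM in the CeA. B6 minus Low_Average for Tapbp was 0.01 (log2) in the CeA, with a 95% confidence interval of -0.145 to 0.173, and -0.13 and -0.12 in the NAcc and PrL. The PrL difference of Tapbp was called without the libraries that stood apart (-0.18, adjusted p = 0.0096), with sample quality weights (-0.18, 0.0072) and with the other run of trays 2 and 3 (-0.14, 0.0339). Its NAcc difference was called with these weights (-0.13, adjusted p = 0.0223) and with the other run (-0.16, 0.0342). NZO and CAST had the highest Tapbp means in each region.

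Psmb8 and Psmb9 are immunoproteasome subunits encoded next to Tap2 and Tap1. Psmb8 was at 2.16 to 4.80 CPM in B6 in the CeA (median 3.27) and at 0.814 to 1.64 in WSB (median 1.04). WSB had the lowest mean in each region, but its difference from the neighbouring strain was not called in the CeA (S129, adjusted p = 0.103), the NAcc (CAST, 0.981) or the PrL (CAST, 0.413). Psmb8 was higher in B6 than in Low_Average by 1.84-fold in the CeA (log2 0.88 ± 0.14 SE, adjusted p = 5e-06), 1.37-fold in the NAcc (adjusted p = 0.0209) and 1.42-fold in the PrL (adjusted p = 0.00374). The NAcc call was lost without B6 mouse 9 (adjusted p = 0.0761), mouse 33 (0.058) or mouse 41 (0.103), with no tray term (0.0825) and with the other run of trays 2 and 3 (0.0906). In the PrL, B6 mice 25 and 33 held 4.47 and 4.56 CPM of Psmb8 and the other 4 held 2.41 to 3.18. Without the libraries that stood apart the PrL difference of Psmb8 was 0.28 on the log2 scale (adjusted p = 0.185), and with sample quality weights it was 0.31 (0.108).

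Psmb9 was the scarcest member, with 23 to 33 counts in each NAcc library of B6. It was higher in B6 than in Low_Average in the CeA (1.5-fold, adjusted p = 0.00689), where AJ, with a median of 1.97 CPM, stood beside B6 with 1.81. With fewer samples, this difference of Psmb9 was not called within tray 1, 2 or 3 (adjusted p = 0.26, 0.304 and 0.363), in females only (0.177) or in males only (0.201). The NAcc and PrL differences (log2 0.26 and 0.19, adjusted p = 0.396 and 0.443) were not called. In the 96 libraries that were sequenced in 2 runs, the median absolute log2 difference between the runs was 0.32 for Psmb9, compared with 0.0523 for B2m and 0.0516 for Tapbp.

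**Figure D4:**
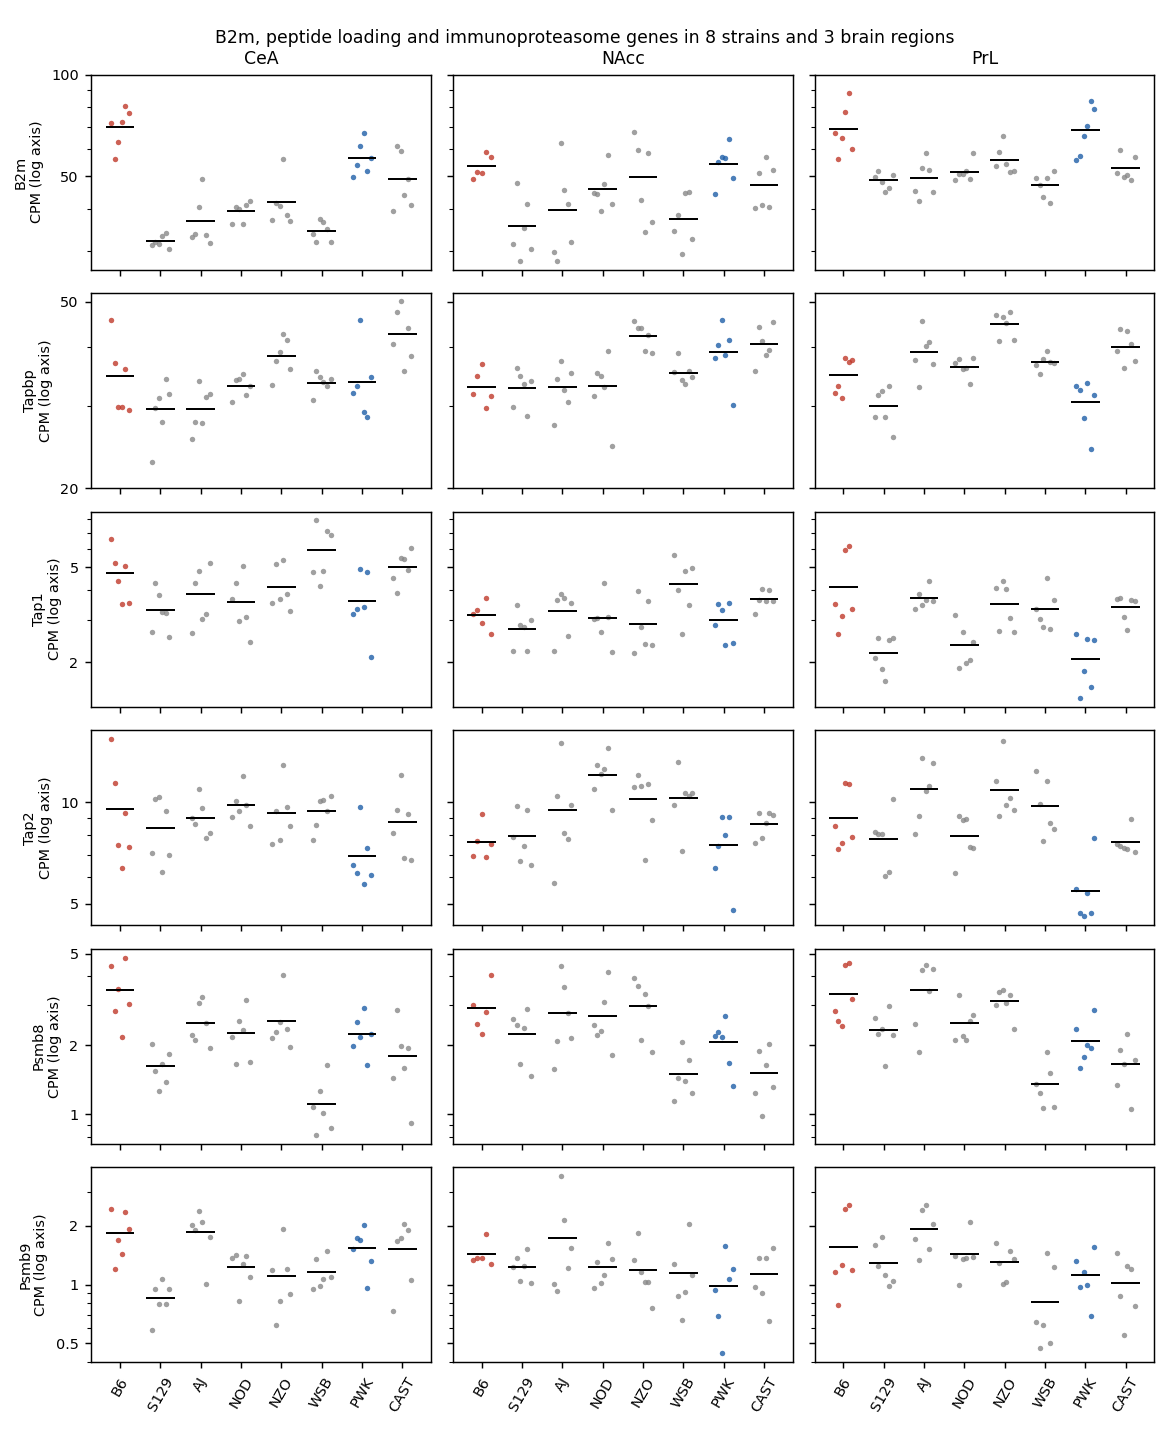
CPM of the 6 processing genes on log axes for each library (points) by strain and region, with bars at the group means, B6 in red and PWK in blue. Differences between strains are smaller than for the heavy chains, with B2m highest in B6 and PWK and Psmb8 low in WSB.

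PWK, the other strain of high preference, differed from Low_Average in another way. H2-T22 was lower in PWK in all 3 regions, by 1.89, 2.57 and 1.71 on the log2 scale in the CeA, NAcc and PrL, while H2-T23 (log2 1.43, 0.70 and 0.86) and B2m (0.56, 0.39 and 0.43) were higher. H2-D1 was higher in the CeA and PrL (0.58 and 0.89), and H2-K1 was not called in any region (0.32, -0.01 and 0.13). Tap2 was lower in each region, and Tap1 and Tapbp were lower in the PrL. In the CeA 3 of the 10 genes were higher and 2 lower, against 20.2% and 19.1% of all genes. The counts were 2 and 2 in the NAcc (20.0% and 18.7% of all genes) and 3 and 4 in the PrL (23.9% and 23.1%).

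In the NAcc these PWK counts are close to the background shares. The 4 lower genes in the PrL stand further above theirs, and no difference from the shares was tested. Of the 12 microglial markers, 6, 2 and 5 were higher in PWK than in Low_Average and 2, 3 and 3 lower (CeA, NAcc and PrL). Of the 10 endothelial markers, 4, 1 and 4 were higher and 0, 1 and 1 lower, and of the 6 astrocyte markers 4, 3 and 0 were higher and none lower. None of the 4 oligodendrocyte markers was higher, and 0, 2 and 0 were lower. Of the 10 pericyte and fibroblast markers, 1, 1 and 2 were higher and 1, 6 and 2 lower, with a median log2 difference of -0.39 in the NAcc. Of the 2 blood myeloid markers none was higher and 1, 2 and 1 were lower, the B cell marker Ighm was higher in each region, and the T cell marker Cd4 was not called in any. Choroid plexus markers were higher in 0, 2 and 0 cases of 5 and lower in 0, 1 and 1, and erythroid markers were higher in 1, 2 and 0 cases of 5 and lower in 1, 1 and 0. Of 21 interferon-induced genes, 8, 6 and 6 were higher and 4, 7 and 7 lower. The part of these markers in the PWK differences was not tested. The B6 and PWK contrasts share the same 6 strains as their comparison. Without the libraries that stood apart, B2m (log2 0.32, adjusted p = 0.154) and Tap2 (-0.42, adjusted p = 0.0507) were no longer called in the NAcc. The Tap2 call in the CeA was lost without PWK mouse 16 (adjusted p = 0.0528) or mouse 32 (0.0804), and that in the NAcc without mouse 48 (0.0694). The CeA call was also lost with both runs summed (0.0559), and both calls were lost with the other run of trays 2 and 3 (0.0629 and 0.0808). With sample quality weights, Psmb8 (log2 0.32, adjusted p = 0.0473) and Psmb9 (0.52, 0.0103) were called higher in PWK in the CeA.

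S129 was also compared with B6 by itself, since mice of the 129 group are known to carry b-type H2-K and H2-D alleles, as B6 does. The likeness of these alleles was not tested here, and neither was the part of alignment in the differences. In the CeA, H2-K1 was 1.87-fold higher in B6 than in S129 (29.1 ± 6.9 and 15.5 ± 2.5 CPM, SD, n = 6, log2 0.90 ± 0.17 SE, adjusted p = 4.5e-05) and H2-D1 was 1.76-fold higher. In the NAcc and PrL, H2-D1 did not differ (log2 -0.09 and 0.04, with 95% confidence intervals of -0.528 to 0.339 and -0.208 to 0.28). H2-K1 was 1.44-fold higher in B6 in the PrL, a call that was lost without the libraries that stood apart (log2 0.25, adjusted p = 0.204), and was not called in the NAcc (1.25-fold, adjusted p = 0.161). H2-T22 and H2-T23 were higher in B6 than in S129 in all 3 regions, by 1.63-fold to 3.45-fold and by 2.15-fold to 3.03-fold.

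Among the processing genes, B2m was higher in B6 than in S129 in all 3 regions (2.18-fold, 1.54-fold and 1.41-fold in the CeA, NAcc and PrL), and Psmb8 and Psmb9 were higher in the CeA (2.16-fold and 2.14-fold). Tap1 (1.77-fold) and Tapbp (1.16-fold) were higher in the PrL. Without the libraries that stood apart, the Tap1 difference fell from 0.82 to 0.53 on the log2 scale and Tapbp was no longer called (adjusted p = 0.0894). The Tapbp call was also lost without B6 mouse 25 (0.0511) or S129 mouse 46 (0.0686). In all, 7, 3 and 6 of the 10 genes were higher in B6 than in S129 (CeA, NAcc and PrL), beside 15.9%, 10.7% and 13.0% of all genes, and none was lower, beside 14.0%, 9.69% and 15.2% of all genes. Markers of other cells moved with this comparison too. Of the 12 microglial markers 9, 5 and 5 were higher in B6 than in S129, of the 10 endothelial markers 9, 3 and 1, of the 4 oligodendrocyte markers 4, 0 and 1, and of the 6 astrocyte markers 5, 0 and 0, with none lower but 1 astrocyte marker in the NAcc. Of the 10 pericyte and fibroblast markers 5, 3 and 2 were higher (median log2 0.47 in the CeA), of the 2 blood myeloid markers 2, 1 and 0, and of the 5 erythroid markers 2, 2 and 1, with none lower. The B cell marker Ighm was higher in each region, and no T cell or choroid plexus marker tested was called. Of the region markers, 0, 1 and 0 of 5 cortical ones were higher and 0, 0 and 3 lower in B6 than in S129, and 0, 0 and 2 of 6 striatal and 1, 0 and 1 of 7 central amygdala ones were higher and none lower. Of 21 interferon-induced genes, 17, 15 and 11 were higher and 0, 1 and 1 lower. The part of these markers in the differences from S129 was not tested.

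Over all 28 pairs of strains, differences were more frequent for the heavy chains than for the processing genes. In the CeA, 71.4% of the 112 tests of a heavy chain gene in a pair of strains were called, in the NAcc 68.8% and in the PrL 62.5%. The corresponding shares of the 168 tests of processing genes were 32.7%, 25.6% and 46.4%, and those of all genes were 28.8%, 26.0% and 33.1%. The difference between the 2 sets was not tested, and pairs that share a strain are not independent. B2m had 19 of 28 pairs called in the CeA, Psmb8 13 and Tap2 only 2.

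Strain accounted for 71.2% to 97.4% of the variance of log2 CPM for the heavy chain genes in the 3 regions, most for H2-T22 and least for H2-K1 in the NAcc. The median over all genes tested was 43.6%, 40.8% and 47.5% (CeA, NAcc and PrL). B2m reached 82.1% in the CeA and only 42.2% in the NAcc, and Psmb9 was at 19.9% in the NAcc, the lowest value of the 10 genes. In the moderated F test over strains, 9 of the 10 genes were called in the CeA (all but Tap2), 9 in the NAcc (all but Psmb9) and 10 in the PrL, against 80.7%, 75.9% and 84.0% of all genes.

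Averaged over strains, most members were higher in the PrL than in the CeA. H2-T23 (9.53 against 6.09 CPM, 1.58-fold), H2-D1 (1.38-fold), B2m (1.26-fold), H2-K1 (1.24-fold), Psmb8 (1.14-fold) and Tapbp (1.06-fold) were higher in the PrL, while Tap1 (1.40-fold) and H2-T22 (1.39-fold) were higher in the CeA. Against the NAcc, the PrL was higher in H2-T23, B2m, H2-D1 and H2-K1 and lower in H2-T22. The H2-T22 averages did not hold in B6, whose means were 21.1, 16.6 and 25.0 CPM in the CeA, NAcc and PrL. NZO hardly moved between the CeA and PrL (12.3 and 12.4), and the remaining strains were lower in the PrL than in the CeA. The averages are of log2 values, and AJ fell to 0.638 CPM in the PrL from 1.89 in the CeA and 2.53 in the NAcc. The difference of the CeA from the NAcc was small, with Tap1 1.29-fold higher in the CeA and H2-D1 and Tapbp lower by 1.13-fold and 1.05-fold. With the mouse as a replicate block, H2-T23 was also called lower in the CeA than in the NAcc (log2 -0.14, adjusted p = 0.0489, compared with 0.0548 without the block), although its mean level was 6.09 CPM in the CeA and 5.98 in the NAcc, so that the fitted difference and the means have opposite directions. Without the libraries that stood apart, H2-D1 was no longer called between CeA and NAcc (-0.15, adjusted p = 0.0865), nor H2-K1 between NAcc and PrL (-0.13, adjusted p = 0.145). Psmb8 was then called lower in the CeA than in the NAcc (-0.19, adjusted p = 0.0272) and Tap2 higher in the NAcc than in the PrL (0.14, adjusted p = 0.0272). Of all genes, 33.2% were higher and 35.9% lower in the CeA than in the NAcc, 38.8% and 35.1% in the CeA than in the PrL, and 44.1% and 38.4% in the NAcc than in the PrL, beside 1 and 2, 2 and 6, and 1 and 4 of the 10 genes.

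Some differences of B6 from Low_Average depended on the region. They were larger in the CeA than in the NAcc for H2-K1 (by 0.70 on the log2 scale), H2-T22 (0.60), H2-D1 (0.59) and B2m (0.48), 4 of the 10 genes against 15.2% of all genes. In the CeA they were also larger than in the PrL for H2-K1 (0.63), H2-D1 (0.57) and B2m (0.44), whereas that of H2-T22 was smaller (-0.85), again 4 of 10 against 10.5%. Between the NAcc and PrL only H2-T22 differed (-1.45, adjusted p = 9.11e-15), against 9.18% of all genes. Without the libraries that stood apart, H2-K1 (0.65, adjusted p = 0.0631) and H2-D1 (0.63, adjusted p = 0.0918) were no longer called between the CeA and NAcc, although these differences stayed about as large.

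The H2-T22 interaction can be read from the strain means. From the CeA to the PrL, H2-T22 means were 21.1 and 25.0 CPM in B6, 12.3 and 12.4 in NZO, 1.89 and 0.638 in AJ, 10.1 and 7.59 in WSB, and 9.56 and 6.69 in CAST. In PWK, the difference of H2-T23 from Low_Average was larger in the CeA than in the NAcc (by 0.73) and the PrL (0.57), that of Tapbp was higher in the CeA (0.29) and NAcc (0.43) than in the PrL, and that of H2-D1 was lower in the NAcc than in the PrL (-0.58). These are 1, 2 and 2 genes of 10 in the 3 pairs of regions, against 3.13%, 3.09% and 5.35% of all genes. The Tapbp difference between CeA and PrL was not called without the libraries that stood apart (0.20, adjusted p = 0.212). Over all strains, the F test of strain by region was called for H2-T22, H2-T23, H2-D1, Tapbp, Tap2 and Psmb9, against 34.5% of all genes. With the mouse as a block B2m (adjusted p = 0.0423, 0.0651 without) and Tap1 (0.0376, 0.0522 without) were called too.

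Mice of the same strain also differed together in some of these genes. After strain, sex and tray were removed, the residuals of H2-K1 and H2-D1 correlated across libraries of a region with r = 0.775, 0.793 and 0.773 in the CeA, NAcc and PrL, those of H2-K1 and B2m with 0.751, 0.771 and 0.645, and those of H2-D1 and B2m with 0.715, 0.858 and 0.667. The H2-T22 and H2-T23 residuals were weakly related (0.184, 0.253 and -0.237), and Tap1 was negatively related to H2-T23 in the CeA (-0.305). Over all 45 pairs of members, the median r was 0.267, 0.352 and 0.364. Each r is over 48 libraries (47 in the NAcc), and all genes of a library share its depth, tissue and dissection, so the values are given as a description without a test.

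**Figure D5:**
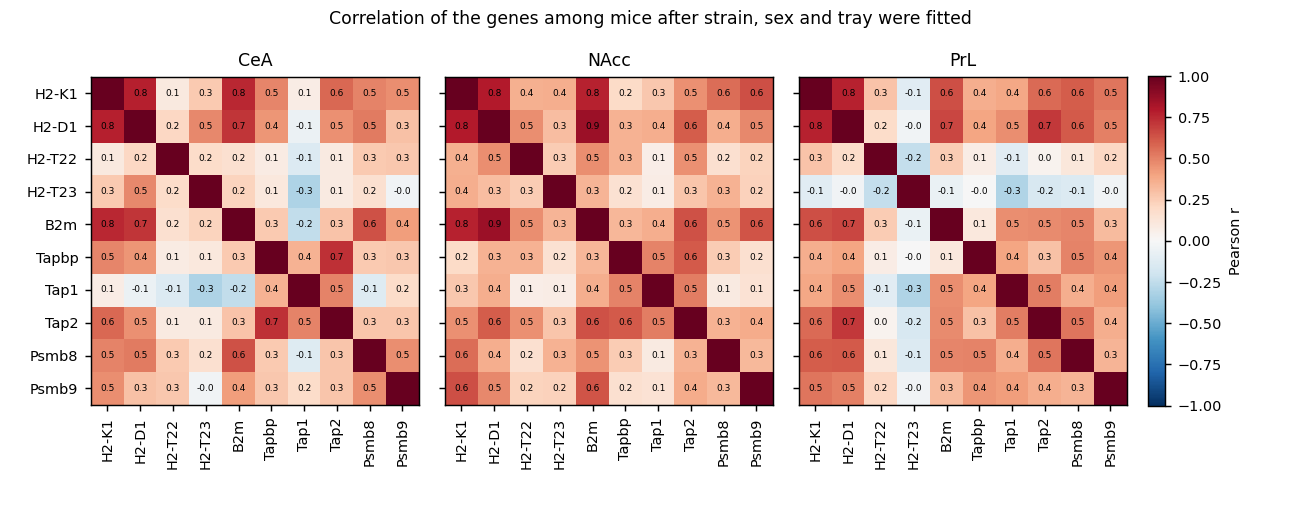
Pearson r between each pair of the 10 genes over the libraries of a region, after strain, sex and tray were fitted, with red for positive and blue for negative values. H2-K1, H2-D1 and B2m form a block of high values in each region, while H2-T23 is near or below 0 against most genes in the PrL.

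Sex made no detectable difference. None of the 30 limma tests of the 10 genes in 3 regions was called, none had an unadjusted p below 0.05, and edgeR likewise called none. The largest difference between females and males was 0.175 on the log2 scale, for Psmb9 in the CeA (SE 0.12). Across all genes, 0.135%, 0.0812% and 0.0947% were called in the CeA, NAcc and PrL.

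Other genes of the pathway were counted over whole lists, and the genes named from a list are those with the largest differences of B6 called in all regions. The counts stand beside 22.3%, 17.3% and 18.3% of all genes that were higher in B6 than in Low_Average and 18.7%, 14.8% and 19.3% that were lower (CeA, NAcc and PrL). Interferon-induced genes moved in the same direction as the heavy chains: of 21 tested, 20, 15 and 15 were higher in B6 than in Low_Average (CeA, NAcc and PrL), with 0, 0 and 1 lower and median log2 differences of 1.04, 0.48 and 0.46. Ifit3 (log2 1.89, 1.06 and 0.96 in the CeA, NAcc and PrL), the interferon-induced GTPase Igtp (1.30, 1.03 and 1.06), Ifit1 (1.67, 0.95 and 0.70) and Oasl2 (1.41, 0.80 and 1.07) were the leading genes called in all 3 regions. Of 17 regulators of class I transcription tested, 7 were higher and 2 lower in the CeA, 0 and 1 in the NAcc, and 4 and 2 in the PrL. Irf1, a transcription factor of the interferon response, was among those higher in the CeA (0.35) but not in the NAcc, where no regulator was higher. It was named after its values had been seen.

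Of 7 peptide-loading chaperones and peptidases of the endoplasmic reticulum, 2 were higher and 0 lower in the CeA, 0 and 2 in the NAcc, and 3 and 1 in the PrL. The 4 other immunoproteasome and activator genes tested were higher in 0, 0 and 2 cases and lower in 1, 2 and 1, and Psmb10, the remaining inducible catalytic subunit, was lower in B6 in all 3 regions (log2 -0.43, -0.61 and -0.35). Of 14 constitutive proteasome genes, 1, 3 and 5 were higher and 3, 1 and 3 lower. Psmb5, the standard subunit that Psmb8 replaces, was higher in B6 in each region (0.36, 0.56 and 0.58), and Psmb7 was slightly lower (-0.14, -0.12 and -0.12).

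Of 5 other heavy chain genes tested, 2, 1 and 1 were higher and 1, 1 and 1 lower, with H2-Q4 higher in all regions (log2 1.18, 0.72 and 0.94). Of 4 class I-like genes outside the H2 region, 2, 2 and 1 were higher and 0, 1 and 0 lower, with Hfe, which regulates iron uptake, higher in each (1.18, 0.49 and 0.59). Among 27 unrelated neighbours in the H2 region, 4 were higher and 14 lower in the CeA, 4 and 3 in the NAcc and 4 and 4 in the PrL, with Rps18 higher (0.82, 0.85 and 0.85) and Brd2 (-0.30, -0.15 and -0.22) and Wdr46 (-0.23, -0.30 and -0.14) lower in all regions. Only 2 of 9 class II genes passed the filter on low counts, with 1, 0 and 1 higher and 1, 0 and 1 lower.

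In tissue of mixed cell types, more cells of a type and more RNA per cell cannot be told apart. Markers of several cell types moved with B6. Of 12 microglial markers, 7, 6 and 6 were higher in B6 than in Low_Average and 0, 1 and 1 lower in the CeA, NAcc and PrL. Their summed level in the CeA was 657 ± 96.8 CPM in B6 (SD, n = 6) and 417 to 586 in the other strains, with Csf1r the most abundant marker. Fcrls (log2 2.37, 2.61 and 2.20), C1qc (1.16, 0.90 and 0.98), C1qb (1.07, 0.72 and 0.76) and C1qa (0.68, 0.34 and 0.48) were higher in all regions. In the NAcc the microglial sum was 658 ± 93.9 in B6 and up to 708 in NOD, and in the PrL it was 561 ± 56.1 and up to 568 in AJ.

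Of 10 endothelial markers, 9, 6 and 2 were higher in B6 and 0, 0 and 1 lower, with Ly6c1 (2.26, 2.13 and 1.84) and Cldn5 (0.56, 0.41 and 0.32) higher in all regions and Slc2a1 the most abundant. Their sum in the CeA was 407 ± 46.0 CPM in B6 and 259 to 365 in the other strains. In the CeA, B6 was higher in all 4 tested oligodendrocyte markers (median log2 1.46), and 0 and 1 of them in the NAcc and PrL, with Mbp the most abundant. Of 6 astrocyte markers, led by Slc1a2, 4, 0 and 1 were higher and 0, 2 and 0 lower. Of 10 pericyte and fibroblast markers, led by Rgs5, 4, 4 and 1 were higher and 0, 0 and 1 lower. The part of these markers in the differences of the class I genes was not tested.

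Among lymphocyte markers, Cd3e reached at most 0.402 CPM in any library and was at 0 in 90 of 143 libraries, and Cd8a was at 0 in 111. A count of 0 limits the transcript at this depth and not the number of cells. The 2 markers of blood myeloid cells that were tested, with Lyz2 the most abundant, were both higher in B6 in the CeA and not called in the NAcc or PrL. Other markers on these lists reached higher levels. Cd4, the tested T cell marker, reached 168 CPM and was called higher in B6 in the NAcc only. Its strain means ran from 34.2 to 111 CPM in the NAcc, 3.47 to 78.5 in the CeA and 0.671 to 7.99 in the PrL. Cd3e did not reach such levels in any region, and whether Cd4 stood for T cells here was not tested. Trac, which was not tested, reached 4.57 CPM. Ighm, the tested B cell marker, was at 0 in no library, reached 68.8 CPM and was higher in B6 in each region (0.70, 0.53 and 0.94). None of the 5 choroid plexus markers tested was called in any region. With Ttr, which is on the list but was not tested, the sum of the 6 listed markers ran from 13.5 to 8559.8 CPM among the B6 libraries of the CeA, and Ttr was its most abundant gene. Of 5 erythroid markers, 2, 2 and 2 were higher and 0, 0 and 1 lower. Among them Hba-a2, which has a near-identical copy beside it, was higher in B6 by 6.71, 6.34 and 6.68 on the log2 scale.

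The members were also compared with all other genes by the pattern of their 24 strain by region means, centred within each region. For H2-T23 the nearest genes were Gm26672 (r = 0.90), Nmrk1 (0.89) and Mtif2 (0.84). For H2-T22 they were Metap1d (0.92), Cep63 (0.89) and Vill (0.86), for H2-K1 Pcbp2 (0.91), Hba-a2 (0.91) and C920006O11Rik (0.91), and for H2-D1 Gm14296 (0.97), Gm14305 (0.95) and Ap3b1 (0.92). Those of the processing genes were B2m with Acadl (0.93), Irgm2 (0.91) and Cd84 (0.90), Psmb8 with Siglech (0.92), Tmed2 (0.91) and Rps15a (0.90), and Psmb9 with Fli1 (0.84), Csf1r (0.80) and Gbp4 (0.80). Tap1 was nearest to Pnn (0.85), Arnt (0.82) and Spag1 (0.81), Tap2 to Spint2 (0.86), Myo10 (0.83) and Rsph10b (0.83), and Tapbp to Cldn10 (0.80), Hspa13 (0.80) and Plpp3 (0.80). Irgm2 and Gbp4 are interferon-induced GTPases, and Siglech, Csf1r and Cd84 are expressed by microglia. Among the members themselves, H2-T22 and H2-T23 had r = 0.75, Psmb8 and Psmb9 0.70, H2-D1 and Psmb8 0.86, and H2-D1 and Tap1 -0.57.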

How the data were processed

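The authors made stranded poly(A) RNA-seq libraries, sequenced in pairs of reads, trimmed them with Trimmomatic, aligned them with STAR 2.7.3a to a mouse reference that the series names both mm10 and GRCm39, and deposited counts per gene. For 96 libraries from trays 2 and 3 the deposited counts came from 2 runs, and 143 of the 240 deposited columns, the libraries of the deposited log2 table, were used. One NAcc library of B6 (mouse 1) was left out, as by the authors. The authors removed genes with low or very high counts and deposited log2 CPM of 14785 genes, scaled by TMM (edgeR 3.38.1, limma 3.52.2). The same scaling was recomputed here and matched the deposited log2 values to within 5e-06.

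Strain differences were fitted in limma 3.58.1 (voom, edgeR 4.0.16, R 4.3.3) within each region with terms for strain, sex and tray, and regions were compared in 1 model of all 143 libraries. P-values were adjusted by Benjamini-Hochberg over all genes and the contrasts of a family, and called at 0.05. CPM are voom's, with a prior count of 0.5. Depth was 14942820 to 33951616 counts per library. The 3 regions came from the same animals, so the mouse number pairs them: the median correlation of same-mouse residuals over genes was 0.0562 for the CeA and NAcc, 0.0176 for the CeA and PrL and -0.00413 for the NAcc and PrL.

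The 10 genes and the 22 further lists (226 genes) were chosen with earlier results of these data known. Named from each list were up to 4 genes with the largest B6 differences called in all regions with the same sign, and the most abundant gene of each cell type list. The 3 genes most like each member were named by r over 24 group means. Alternatives were edgeR and DESeq2 (1.42.0) tests, other size factors, filters on low counts, no tray term, sample weights, the other run or both runs, 1 sex or tray at a time, each mouse of B6, PWK or S129 left out, the mouse as a block, and, chosen after seeing the data, leaving out 14 libraries that stood apart in region markers. Fits were tested on simulated data. The reference annotation and RefSeq promoters were of GRCm38 and were joined by gene identifier or symbol only.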

Additional observations from a re-analysis of the deposited data

Results flagged for a closer look

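Among 240 groups of 1 gene, strain and region, 12 (5%) held a library far from the others of its group, and chance gives about 1 in 20. The highest library stood out for H2-K1 in the PrL of CAST mouse 4 (7.79 CPM), H2-T22 in the CeA of AJ mouse 5 (2.80) and the PrL of AJ mouse 29 (1.1), and B2m in the CeA of NZO mouse 26 (56.1) and the PrL of NOD mouse 47 (58.7). It also stood out for Tap2 in the PrL of CAST mouse 36 (8.90) and of PWK mouse 48 (7.85), Psmb8 in the CeA of NZO mouse 26 (4.04), and Psmb9 in the NAcc of B6 mouse 33 (1.81). The lowest library stood out for H2-T22 in the PrL of PWK mouse 8 (0.549 CPM), H2-T23 in the NAcc of S129 mouse 22 (3.56), and Psmb9 in the CeA of AJ mouse 37 (1.00). NZO mouse 26 was high in both B2m and Psmb8 in the CeA.

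The strain differences of several genes differed between regions, each tested as a difference of log2 differences in limma over all 143 libraries. For B6 minus Low_Average, CeA minus NAcc was 0.70 for H2-K1, 0.59 for H2-D1, 0.60 for H2-T22 and 0.48 for B2m. CeA minus PrL was 0.63 for H2-K1, 0.57 for H2-D1, -0.85 for H2-T22 and 0.44 for B2m, and NAcc minus PrL was -1.45 for H2-T22. For PWK minus Low_Average, CeA minus NAcc was 0.73 for H2-T23, CeA minus PrL was 0.57 for H2-T23 and 0.29 for Tapbp, and NAcc minus PrL was -0.58 for H2-D1 and 0.43 for Tapbp.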

How the results depend on the processing

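No called difference changed sign under any alternative run. Leaving out 1 mouse of B6, PWK or S129 at a time, the number of the 10 genes called ran, in the CeA, NAcc and PrL, from 7 to 7, 4 to 6 and 6 to 7 for B6 minus Low_Average, from 4 to 6, 4 to 4 and 7 to 7 for PWK minus Low_Average, and from 7 to 9, 3 to 3 and 5 to 7 for B6 minus S129. Within trays 1, 2 and 3, with fewer samples, B6 minus Low_Average called 3, 2 and 3 genes in the NAcc (6 with all libraries), where tray 2 has 1 B6 library that is taken to vary like the other strains, and PWK minus Low_Average called 1, 2 and 1 there (4). PWK minus Low_Average called 3 genes in the CeA within tray 1, within tray 3 and in females only (5), and 2 in the PrL within tray 2 and within tray 3 (7). Without the libraries that stood apart in region markers, it called 2 in the NAcc. The called differences between regions then fell from 4 to 2 genes for B6 (CeA minus NAcc) and from 2 to 1 for PWK (CeA minus PrL). With a mean CPM of at least 5, fewer processing genes were tested, and 28, 26 and 43 of their pair tests were called in the CeA, NAcc and PrL (55, 43 and 78 without this filter). With the mouse as a replicate block, 4, 8 and 5 genes differed between regions (3, 8 and 5 without), and the counts of strain by region differences were the same. Of the single-gene values, 1101 kept their side of the threshold, 81 fell below it and 20 rose above it, and with 1 mouse left out these were 676, 11 and 13. The 13 were in B6 minus S129 Tap1 (without B6 mouse 25 or 41 or S129 mouse 14) and Tapbp (without B6 mouse 17 or 25 or S129 mouse 38) in the CeA and Psmb8 in the PrL (without B6 mouse 1, 9 or 17 or S129 mouse 38), in PWK minus Low_Average Psmb9 in the CeA (without mouse 40) and Tapbp in the NAcc (without mouse 48), and in B6 minus Low_Average Tapbp in the PrL (without mouse 25). Depth limits the precision of Psmb9, which had 23 to 33 counts in each NAcc library of B6.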

Other observations

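The NAcc library of B6 mouse 1, which the authors left out, held more of several class I transcripts than the other 5 NAcc libraries of B6. In it H2-K1 was at 38.8 CPM, H2-D1 at 75.5, H2-T22 at 31.9, H2-T23 at 13.9 and B2m at 96.6, and among the other 5 the highest values were 24.3, 35.8, 23.5, 15.6 and 58.8. Tap2 was at 15.3 CPM, Tap1 at 5.57, Tapbp at 34.6, Psmb8 at 5.43 and Psmb9 at 2.02. With this library included, 6 of the 10 genes were again called in B6 minus Low_Average in the NAcc, with log2 differences of 1.48 for H2-K1, 0.99 for H2-D1, 1.5 for H2-T22 and 0.50 for B2m.

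Other class I transcripts, chosen after their values were seen, also differed. For H2-T24, the log2 difference between B6 and Low_Average was 0.31 (CeA), -0.37 (NAcc) and -0.59 (PrL), with limma adjusted p-values of 0.138, 0.0857 and 0.000315. For H2-M3, whose product presents formylated peptides, the log2 difference between PWK and Low_Average was -0.26 (CeA), -0.42 (NAcc) and -0.82 (PrL), with limma adjusted p-values of 0.237, 0.217 and 1.5e-05.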
